A study of Rattus norvegicus with 17 samples.

Results

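Nuclear receptors are transcription factors that switch genes on or off when a small molecule binds them, and the liver uses a group of them to sense bile acids, foreign chemicals, oxysterols and fatty acids. The 10 genes described here were listed by name: the bile acid receptor Nr1h4 (FXR), its induced repressor Nr0b2 (SHP), the bile acid synthesis activator Nr5a2 (LRH-1), the FGF19/15 receptor Fgfr4 with its co-receptor Klb, the xenobiotic receptors Nr1i2 (PXR) and Nr1i3 (CAR), the oxysterol receptor Nr1h3 (LXR-alpha), the fatty acid receptor Ppara and the shared partner Rxra. Their probe sets were those annotated to exactly 1 of these symbols. This gave 11 probe sets for 9 of the 10 genes, among 14217 genes with such a probe set on the array. Nr5a2 had 3 probe sets, and Klb had no probe set of this kind and was not analysed here.

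Liver RNA from 17 rats (Rattus norvegicus) was measured on Affymetrix Rat Genome 230 2.0 arrays, 1 array per rat. The 6 sham rats had an abdominal incision at week 7 and a saline pump under the skin. In the 6 ligated saline rats the bile duct was tied at week 7 with the same saline pump, and the 5 ligated ghrelin rats had the duct tied and a pump delivering ghrelin, a stomach peptide hormone, at 10 micrograms per kg per day. All livers were taken at week 9. The sources used here do not give strain or sex.

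Tying the bile duct stops bile flow, so that bile acids accumulate in the liver, bile ducts multiply and scar tissue forms. Bile acids bound to FXR raise SHP, and SHP lowers bile acid synthesis in part by restraining LRH-1 and other activators at the synthesis enzymes. Intestinal FGF19 (FGF15 in rodents) acts on hepatocytes through FGFR4 and KLB to the same end. PXR and CAR induce enzymes and transporters that modify and export bile acids and drugs. RXR-alpha is the partner with which FXR, PXR, CAR, LXR-alpha and PPAR-alpha bind DNA.

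The bases just before the transcription start of Nr0b2 and Rxra are shown because Nr0b2 is the member that links FXR and LRH-1 and varied most among sham rats, and Rxra is the shared partner and had the lowest fitted value of ligated saline against sham. Both are the 250 bases upstream of the start in RefSeq, assembly GRCr8, plus strand, at chr5:151062910-151063159 for Nr0b2 and chr3:31387642-31387891 for Rxra. Capitals mark matches on either strand to CAAGG (the core of the LRH-1 binding sequence), TATAAA (the TATA box) and GGGCGG (a GC box, CCGCCC on the other strand).
Nr0b2: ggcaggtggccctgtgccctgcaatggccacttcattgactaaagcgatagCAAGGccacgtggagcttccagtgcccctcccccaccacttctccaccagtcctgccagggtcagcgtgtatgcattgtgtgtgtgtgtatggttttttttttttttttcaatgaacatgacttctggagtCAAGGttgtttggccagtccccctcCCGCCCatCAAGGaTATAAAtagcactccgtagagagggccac
Rxra: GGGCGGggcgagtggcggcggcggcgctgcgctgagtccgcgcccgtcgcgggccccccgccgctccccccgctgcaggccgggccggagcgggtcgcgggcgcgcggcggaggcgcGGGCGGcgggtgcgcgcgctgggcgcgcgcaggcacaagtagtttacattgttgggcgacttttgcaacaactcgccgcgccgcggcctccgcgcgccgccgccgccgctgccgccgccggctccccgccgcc
The Nr0b2 window held 3 CAAGG matches, 1 of which extends to CAAGGNCA, a longer form of the LRH-1 sequence that contains CAAGG. It also held 1 TATAAA and 1 GGGCGG. The Rxra window, with a GC content of 82.8% against 52.8% for Nr0b2 and a median of 51.2% over all windows, held 2 GGGCGG and none of the other motifs. Neither window held AGGTCA, the hexamer that many nuclear receptors bind,. Of 33469 RefSeq windows of this length, CAAGG was present in 46.3%, CAAGGNCA in 5.58%, TATAAA in 12.9%, GGGCGG in 30.5% and AGGTCA in 14.1%. These matches describe the letters of the reference and are not measured binding sites. RefSeq windows were found for 9 of the 10 genes.

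Values are log2 intensities from the deposited table. A probe set was tested when it lay above 3.95, the log2 median of all values, on at least 5 arrays, and 10 of the 11 probe sets for 8 of the 9 genes did so. All 10 lay above that level on every array. The exception was Ppara, which is treated last. A probe set or gene was called changed when its adjusted p, from limma with Benjamini-Hochberg adjustment over all probe sets tested, was under 0.05. For gene counts, Nr5a2 is represented by 1390965_at, its probe set with the highest mean.

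The livers carried hepatocyte markers on every array and gained markers of several other cell types after ligation. Between ligated saline and sham, all 9 tested cholangiocyte markers rose, as did 10 of 11 stellate cell and myofibroblast markers, 8 of 9 macrophage markers, 4 of 8 endothelial markers and 5 of 7 lymphocyte and neutrophil markers. Over all genes tested 37.5% were called higher and 27.2% lower, so the endothelial count lay near the share over all genes. The summed intensity of the cholangiocyte markers ran from 380.2 to 713.64 in sham rats, where 4 of the 9 were below the filter level on every array, from 5072.8 to 14951 in ligated saline rats and from 6022.1 to 9706.5 in ligated ghrelin rats. Those 4, and 1 stellate cell marker also below that level in every sham rat, passed the filter only through ligated arrays. Their direction was thus set by that step. The summed intensity of the endothelial markers did not rise, at 4695.5 to 6192.7 in sham and 4643.3 to 5954.6 in ligated saline rats. In the stellate, macrophage, endothelial and lymphocyte lists 1 marker each was called lower. These, named after their values were seen, were Lrat, Cd14, Kdr and Prf1. Of 11 hepatocyte markers 6 fell and none rose. Their log2 differences ran from -1.61 for Cebpa to 0.06 for Apob, with a mean of -0.50 and a median of -0.20, so that the mean lay below the median, and Alb was at -0.05. Their summed intensity ran from 256680 to 281890 in sham, from 211440 to 243720 in ligated saline and from 227830 to 250510 in ligated ghrelin rats. Between ligated ghrelin and ligated saline no hepatocyte marker was called by limma, 2 had an unadjusted p under 0.05, and the mean difference was 0.08. Of the 11 stellate cell and myofibroblast markers 2 were called lower there (Col3a1 at -0.68 ± 0.145 and Rgs5 at -0.70 ± 0.158, named after their values were seen), 6 had an unadjusted p under 0.05 and the median was -0.56. No marker of the other 4 lists was called there, with 1 or 2 per list at an unadjusted p under 0.05. Over all genes 2.34% were called there and 22.0% had an unadjusted limma p under 0.05. The array medians were 14.2 to 14.7 in sham, 16.1 to 17.6 in ligated saline and 15.4 to 16.4 in ligated ghrelin rats. In whole liver RNA, fewer cells of a type and less RNA per cell cannot be told apart.

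In the ligated saline livers 5 of the 8 member genes were lower than in sham and none was higher. FXR, PXR and RXR-alpha transcripts were at 35.4% to 44.9% of the sham level, CAR was at 39.0% and FGFR4 at 63.9%, while LRH-1, SHP and LXR-alpha were not called. Over all 9735 genes tested, 27.2% were called lower and 37.5% were called higher in the same comparison. The members' median log2 difference was -1.06, against 0.07 over all genes. In 4 of the 8, namely Nr1h4, Fgfr4, Nr1i2 and Rxra, no ligated saline value reached the sham range, a separation that 44.5% of all genes showed in one direction or the other. With hepatocyte markers subtracted from each array, an alternative added after the data were seen that takes the markers' mean, not their median, from every difference, 3 members stayed lower (Nr1h4, Nr1i2 and Rxra) and 2 were called higher (Nr5a2 and Nr1h3). In that setting 88.2% of all called probe sets were higher, against 55.7% on the values as deposited.

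The bile acid receptor Nr1h4 (1369073_at) had a lowest, median and highest value of 10.41, 10.76 and 11.14 in sham rats and of 9.31, 9.62 and 10.06 in ligated saline rats. In the ligated ghrelin rats it was 10.11, 10.07, 10.06, 9.72 and 9.91. Every ligated rat of either group lay below every sham rat, and the ligated groups overlapped each other. Ligated saline was lower than sham by a log2 difference of -1.16 ± 0.149 (SE, adjusted p = 4.98e-06), and ligated ghrelin by -0.83 ± 0.157 (adjusted p = 0.000308). Ligated ghrelin minus ligated saline was 0.33 ± 0.157 (adjusted p = 0.243). Both calls against sham held in all 27 alternative settings. With the hepatocyte marker mean subtracted the saline difference was -0.65.

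Nr0b2 (1368376_at), the repressor that FXR induces, was the member with the widest spread. In sham rats its lowest, median and highest values were 7.79, 10.87 and 11.39, with sham 1 at 7.79 and sham 3 at 9.22. The sham SD of 1.44 was larger than that of 99.5% of the probe sets tested, and its SD within groups was 1.02. Ligated saline rats ran from 8.20 to 10.13 with a median of 9.41, and ligated ghrelin rats were at 8.73, 9.47, 9.35, 9.55 and 9.96. The ligated rats all lay below the sham mean of 10.24, yet inside the sham range. Ligated saline minus sham was -0.97 ± 0.544 (95% interval -2.12 to 0.18, adjusted p = 0.134) and ligated ghrelin minus sham -0.83 ± 0.571 (adjusted p = 0.235). Sham 1 decided both: without it the differences were -1.46 (adjusted p = 0.00734) and -1.32 (adjusted p = 0.0204). Ligated ghrelin minus ligated saline was 0.14 ± 0.571 (adjusted p = 0.915).

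Nr5a2, which activates bile acid synthesis genes and the SHP gene, did not pass the test in any comparison on any of its 3 probe sets. On 1390965_at the sham rats ran from 8.91 to 9.59 with a median of 9.30, the ligated saline rats from 9.18 to 9.55 with a median of 9.34, and the ligated ghrelin rats were at 9.52, 9.19, 9.36, 9.58 and 9.21. The ligated rats of both groups lay inside the sham range. Ligated saline minus sham was 0.12 ± 0.116 (adjusted p = 0.367) there, -0.27 ± 0.177 (adjusted p = 0.203) on 1384835_at and -0.24 ± 0.295 (adjusted p = 0.50) on 1387573_a_at. The probe sets thus differed in sign. Ligated ghrelin minus sham was 0.14 (adjusted p = 0.343), -0.44 (adjusted p = 0.0556) and -0.62 (adjusted p = 0.103) in the same order, and 1384835_at passed without sham 4, sham 5, sham 6 or ligated ghrelin 4 (adjusted p from 0.0315 to 0.0482). Under quantile normalization the latter 2 probe sets passed in that comparison (-0.51 and -0.83), as 1384835_at did with equal medians (-0.56, adjusted p = 0.0193). With array medians set equal, 1384835_at was called lower in ligated saline (-0.45, adjusted p = 0.0359), and with hepatocyte markers subtracted 1390965_at was called higher in ligated saline (0.63, adjusted p = 0.00199) and in ligated ghrelin (0.57, adjusted p = 0.00679) than in sham.

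The ligated ghrelin 3 rat stood apart on the other Nr5a2 probe sets. On 1384835_at the ligated ghrelin rats were at 8.38, 8.46, 7.68, 8.71 and 8.48, and on 1387573_a_at at 6.43, 6.50, 4.81, 6.52 and 6.61. The third value is the lowest of all 17 arrays in both. The same array had the largest log2 difference between the 3' and 5' control probe sets of beta-actin, a sign of shortened or incompletely copied RNA, at 2.62 against 1.75 to 2.37 elsewhere, and of GAPDH, at 0.62 against 0.02 to 0.28 elsewhere. On 1390965_at this rat, at 9.36, was not low. Without it, ligated ghrelin minus ligated saline was -0.01 on 1384835_at in place of -0.17, and -0.04 on 1387573_a_at in place of -0.38. The part that RNA quality plays in these values was not tested.

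Fgfr4 (1389801_at), the hepatocyte receptor for intestinal FGF19/15, was tightly grouped in sham rats, at 8.21, 8.39 and 8.49 for the lowest, median and highest value. In ligated saline rats these were 7.44, 7.79 and 7.96, and the ligated ghrelin rats were at 8.22, 8.09, 8.32, 7.71 and 8.09. No ligated saline value reached the sham range, whereas 4 of the 5 ghrelin rats lay above all ligated saline rats and 2 lay within the sham range. Ligated saline fell by 0.65 ± 0.109 (adjusted p = 7.36e-05) on the log2 scale. Ligated ghrelin minus ligated saline was 0.36 ± 0.114 (95% interval 0.11 to 0.60), with an unadjusted limma p of 0.00644 and an adjusted p of 0.0941. Without ligated ghrelin 4, the low one, the difference was 0.45 with an adjusted p of 0.0362. That was the only 1 of 27 settings in which it was called. Over these settings the difference ran from 0.28 to 0.45, with an adjusted limma p of up to 0.347. Stellate cell and myofibroblast markers were lower in this comparison (median -0.56), and their part in the Fgfr4 value was not tested. Ligated ghrelin minus sham was -0.29 ± 0.114 (adjusted p = 0.0398), a call lost when sham 1, 4, 5 or 6 or ligated ghrelin 2, 4 or 5 was left out (adjusted p up to 0.131). With hepatocyte markers subtracted it read 0.13 (adjusted p = 0.42) and the ligated saline difference -0.15 (adjusted p = 0.344).

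**Figure D1:**
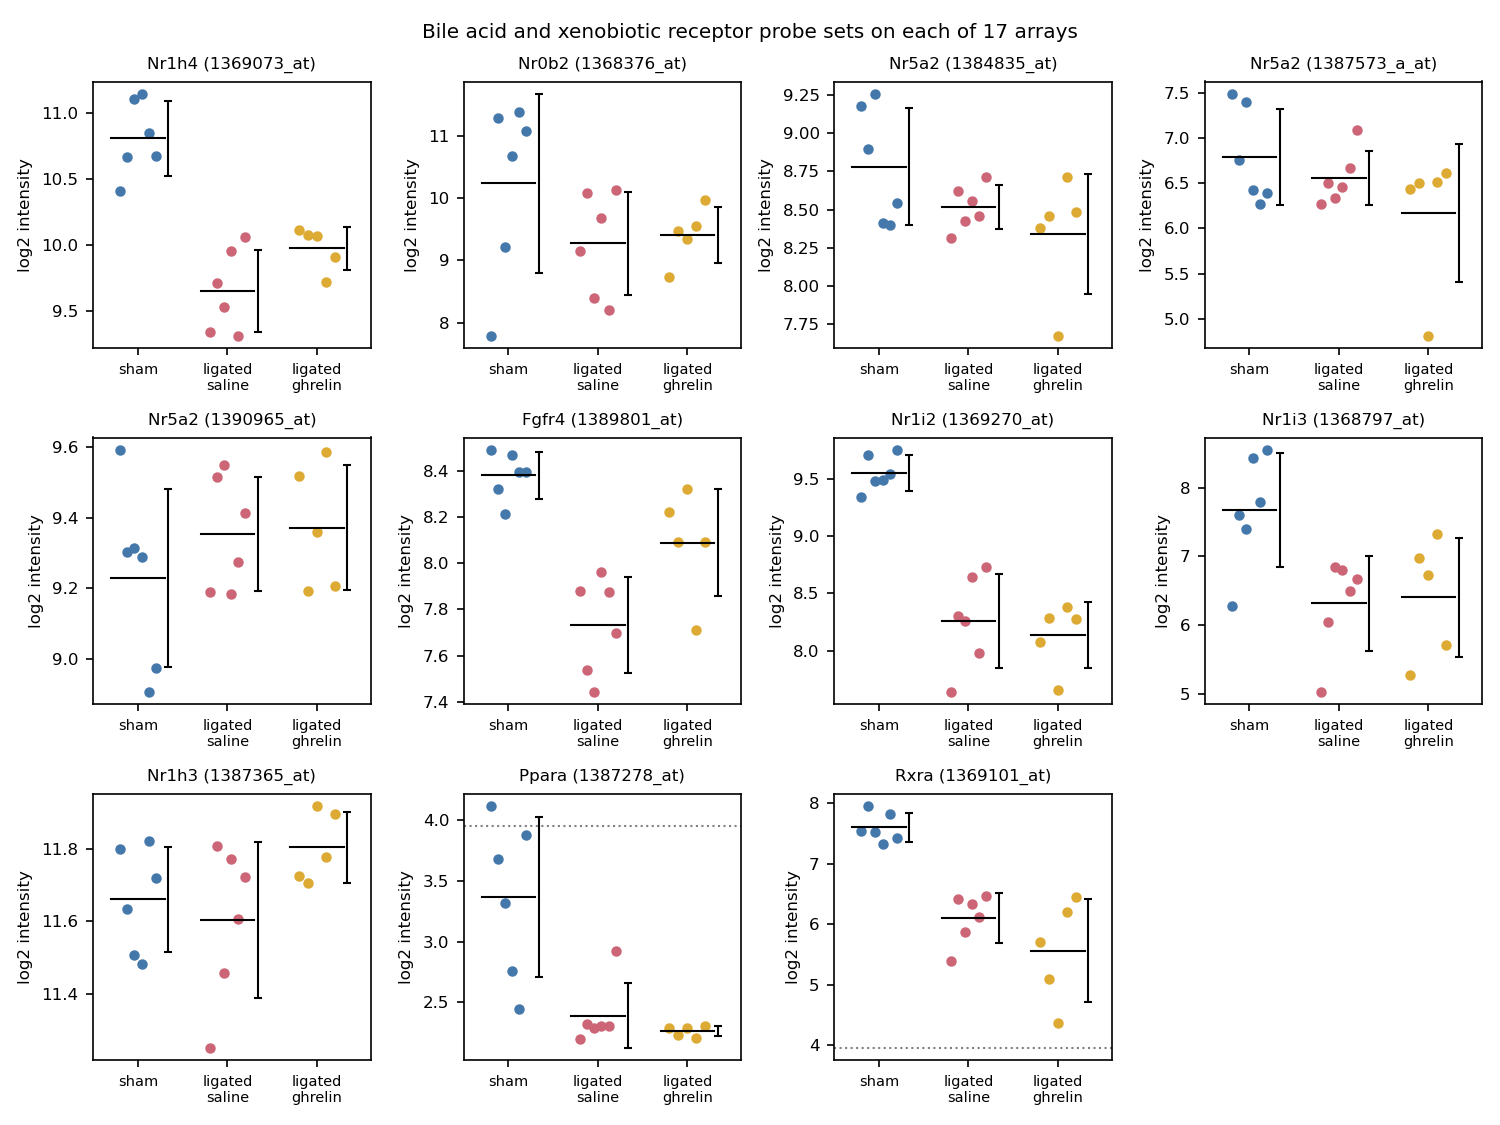
Log2 intensity of each member probe set (vertical axis, scaled separately per panel) in the 6 sham, 6 ligated saline and 5 ligated ghrelin rats, 1 point per rat with the group mean and SD. Nr1h4, Nr1i2 and Rxra lay lower in both ligated groups than in any sham rat, Nr0b2 spread from 7.79 to 11.39 among sham rats, and Nr1h3 lay between 11.25 and 11.92.

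Nr1i2 (1369270_at), the xenobiotic receptor PXR, ran from 9.34 to 9.75 in sham rats with a median of 9.51. It ran from 7.64 to 8.73 in ligated saline rats with a median of 8.28, and was 8.07, 8.29, 7.66, 8.38 and 8.28 in ligated ghrelin rats. Both ligated groups lay wholly below the sham rats, and the ghrelin rats lay inside the range of the saline rats. The log2 difference from sham was -1.30 ± 0.167 (adjusted p = 5.04e-06) with saline and -1.42 ± 0.176 (adjusted p = 5.11e-06) with ghrelin. Ligated ghrelin minus ligated saline was -0.12 ± 0.176 (adjusted p = 0.725). The calls against sham held in all 27 settings, at -0.79 for saline with hepatocyte markers subtracted.

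Nr1i3 (1368797_at), the constitutive androstane receptor CAR, was more scattered, with an SD within groups of 0.794 that exceeded that of 97.9% of the probe sets tested. Its lowest, median and highest values were 6.28, 7.69 and 8.55 in sham and 5.03, 6.59 and 6.85 in ligated saline rats, and the ligated ghrelin rats were at 5.27, 6.97, 6.73, 7.32 and 5.71. The groups overlapped, since sham 1, also the lowest for Nr0b2, lay inside the ligated range. Ligated saline was lower than sham by -1.36 ± 0.424 (adjusted p = 0.0106), a call lost with hepatocyte markers subtracted (-0.86, adjusted p = 0.0519). Ligated ghrelin minus sham was -1.27 ± 0.445 (adjusted p = 0.0235), a call lost without sham 4, sham 6, ligated ghrelin 1 or ligated ghrelin 5, and with hepatocyte markers subtracted (adjusted p up to 0.0763). Ligated ghrelin minus ligated saline was 0.09 ± 0.445 (adjusted p = 0.933).

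Nr1h3 (1387365_at), the oxysterol receptor LXR-alpha, had the smallest pooled SD within groups of the tested member probe sets, 0.164. Sham rats ran from 11.48 to 11.82 with a median of 11.68, ligated saline rats from 11.25 to 11.81 with a median of 11.66, and ligated ghrelin rats were at 11.72, 11.71, 11.92, 11.78 and 11.90. The groups overlapped throughout. Ligated saline minus sham was -0.06 ± 0.0981 (95% interval -0.27 to 0.15, adjusted p = 0.625), ligated ghrelin minus sham 0.14 ± 0.103 (adjusted p = 0.251) and ligated ghrelin minus ligated saline 0.20 ± 0.103 (adjusted p = 0.271). Relative to the hepatocyte markers it was called higher in ligated saline (0.44, adjusted p = 0.00221). In that setting the marker mean of -0.50 is taken from every difference, and 88.2% of all called probe sets were higher.

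Rxra (1369101_at), the partner shared by these receptors, ran from 7.32 to 7.96 in sham rats with a median of 7.53. It ran from 5.39 to 6.47 in ligated saline rats with a median of 6.22, and was 5.70, 5.09, 4.36, 6.20 and 6.44 in ligated ghrelin rats. Every ligated rat lay below every sham rat, and the ghrelin rats spread wider than the saline rats. The difference from sham was -1.50 ± 0.288 (adjusted p = 0.000261) with saline and -2.04 ± 0.302 (adjusted p = 3.16e-05) with ghrelin, and both calls held in all 27 settings, with an adjusted p of at most 0.00308. Ligated ghrelin minus ligated saline was -0.54 ± 0.302 (adjusted p = 0.316). The lowest rat was ligated ghrelin 3, the array with the highest 3' to 5' control differences, and without it the ghrelin minus saline value was -0.24 (adjusted p = 0.627) and the ghrelin minus sham value -1.74 (adjusted p = 3.72e-05).

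**Figure D2:**
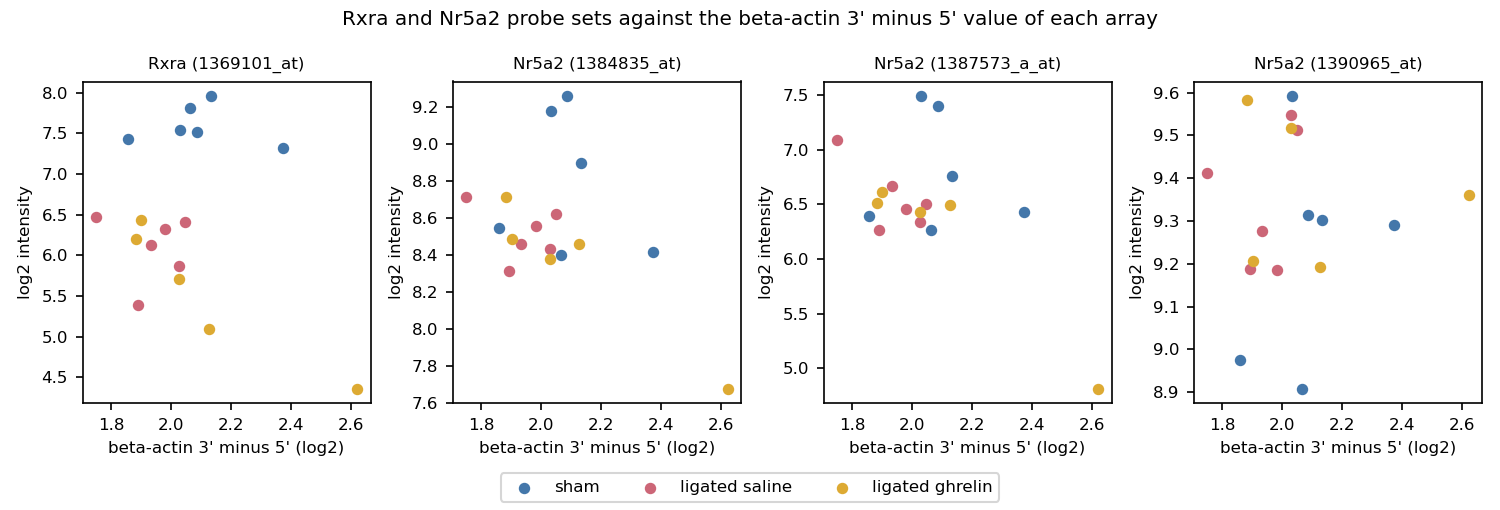
Log2 intensity of Rxra and of the 3 Nr5a2 probe sets (vertical axes) against the log2 difference between the 3' and 5' beta-actin control probe sets of the same array (horizontal axis), 1 point per rat. The array at 2.62, ligated ghrelin 3, was the lowest for Rxra (4.36) and for the Nr5a2 probe sets 1384835_at (7.68) and 1387573_a_at (4.81), but not for 1390965_at (9.36).

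Ppara, the fatty acid receptor, was at the lower end of the array's range on 1387278_at. The sham rats were at 4.12, 3.68, 3.32, 2.76, 2.44 and 3.88, so that 1 of 17 arrays exceeded the filter level of 3.95. All ligated rats lay between 2.19 and 2.92. Since both sides were at or near the level of dim probe sets, no fold change is given. Without any filter it was called lower in both comparisons with sham, which made 6 lower genes. That setting tests probe sets at background level, and far more of all genes were called in it, as given below. The Ppara call is therefore not counted with the other lower members.

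Between ligated ghrelin and ligated saline 0 of the 8 member genes were called by limma, and Fgfr4 alone had an unadjusted p under 0.05. Over all genes 2.34% were called in this comparison, and 22.0% had an unadjusted p under 0.05. No member's groups were separate, as 4.53% of all genes' were. The members' median difference was 0.11, against 0.01 over all genes.

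Against sham, the ligated ghrelin rats had the same count of 5 lower member genes, namely Nr1h4, Fgfr4, Nr1i2, Nr1i3 and Rxra, where 21.2% of all genes were called lower. The groups were separate for Nr1h4, Nr1i2 and Rxra, 3 of the 8, against 39.0% of all genes. This comparison uses the same sham arrays as the first one, so the counts do not stand independently. The members' median was -0.83, against 0.09 over all genes.

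**Figure D3:**
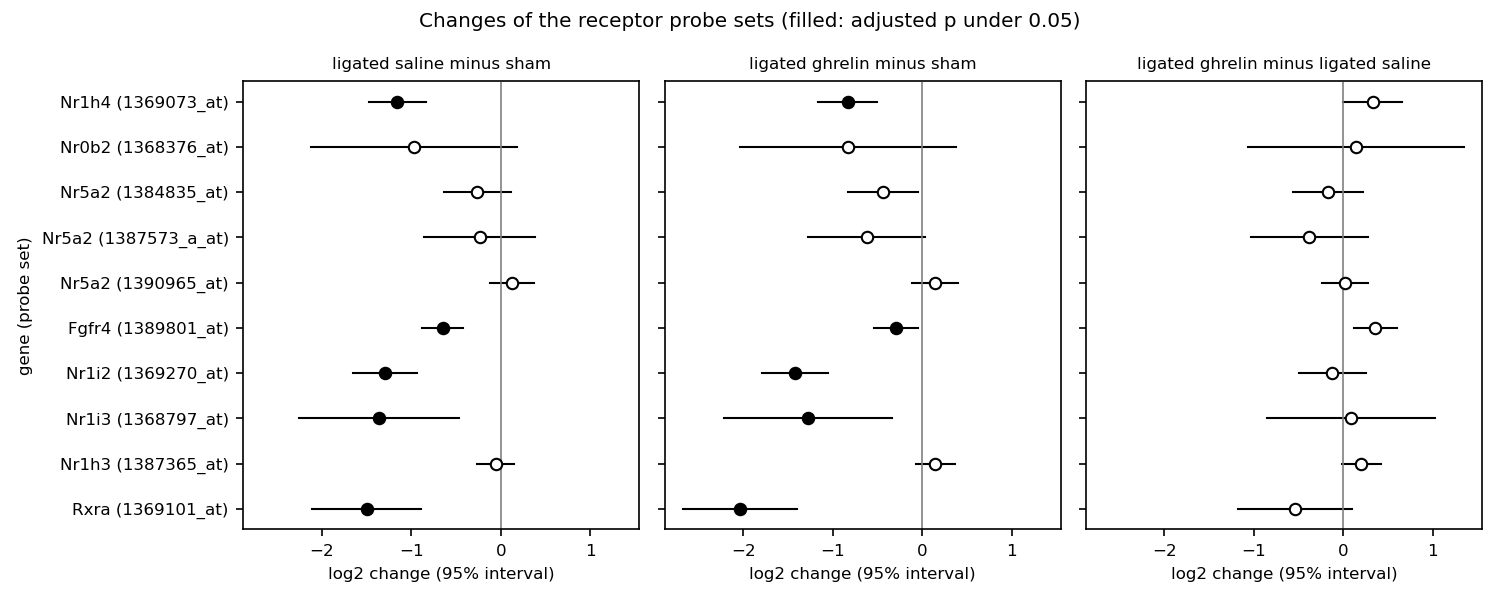
Log2 difference of each member probe set (points) with its 95% interval (bars) in the 3 comparisons. Nr1h4, Nr1i2 and Rxra lay well below 0 in both comparisons with sham, the Nr0b2 interval for ligated saline against sham ran from -2.12 to 0.18, and between the ligated groups the Fgfr4 interval ran from 0.11 to 0.60. The intervals are not adjusted for the number of probe sets tested, and limma did not call Fgfr4 between the ligated groups (adjusted p = 0.0941).

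Whether members that act on each other moved together among rats of a group was examined for 3 pairs, after removing group means (17 rats, permutation within groups, adjusted over the 3 pairs). Nr1i2 and Nr1i3, which share many target genes, had a Pearson r of 0.488 (permutation p = 0.0495, adjusted 0.149) and a Spearman rho of 0.512 (permutation p = 0.0393, adjusted 0.118), and r was 0.457 without the 2 rats farthest from the Nr1i2 median. Within groups of 6 rats, untested, r was 0.67 in sham and 0.77 in ligated saline. Nr1h4 and its target Nr0b2 had an r of 0.384 (permutation p = 0.191, adjusted 0.286) and a rho of 0.279 (permutation p = 0.335, adjusted 0.503), and r was -0.02 without the 2 farthest rats. Within sham r was 0.30 and within ligated saline 0.79. Nr0b2 and Cyp7a1, the rate-limiting enzyme of bile acid synthesis that SHP represses, had an r of 0.03 (permutation p = 0.926, adjusted 0.926) and a rho of -0.005 (permutation p = 0.99, adjusted 0.99), and r was 0.06 without the 2 farthest. Within groups, again untested, r was 0.56 in sham and -0.80 in ligated saline, so that the pooled value joined values of opposite sign. Whether these groups differ was not tested. Within the 5 ligated ghrelin rats r was 0.13 for Nr1i2 with Nr1i3, -0.57 for Nr1h4 with Nr0b2 and 0.18 for Nr0b2 with Cyp7a1. The values within single groups were not tested, and groups of 5 or 6 rats are too few to rest on. None of the 3 pairs passed the adjustment. Leaving out the 2 rats farthest on the first gene of a pair narrows its range, which can by itself lower r. The fall from 0.384 to -0.02 for Nr1h4 with Nr0b2 is therefore only a description.

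The known targets of the receptors were counted next. Each list's count is given beside those with quantile normalization, with array medians set equal and with hepatocyte markers subtracted. For comparison, 27.2% of all 9735 genes tested were called lower and 37.5% higher in ligated saline than in sham, on the values as deposited. Among FXR and SHP targets, 6 of 11 tested genes were lower in ligated saline than in sham (5, 8 and 3 under those settings), 2 were higher (2, 1 and 3), and the median was -0.31. The list mixes genes that FXR raises with genes that SHP lowers, such as Cyp7a1. Its counts and median therefore give no direction of receptor activity. Slc10a1, the bile acid uptake carrier NTCP, fell by 1.29 ± 0.144 (adjusted p = 1.02e-06), Apoc2, a lipoprotein lipase cofactor, by 1.75 ± 0.247 (adjusted p = 1.26e-05) and Cyp8b1, which makes cholic acid, by 3.81 ± 0.582 (adjusted p = 2.8e-05). The 2 that rose, named after their values were seen, were Abcb4, the phospholipid export pump, by 1.24 ± 0.206, and Sdc1, a cell surface proteoglycan, by 0.34 ± 0.122. Cyp7a1, the gene that SHP is best known for lowering, ran from 12.06 to 13.07 in sham and from 12.21 to 13.66 in ligated saline rats, and its difference of 0.30 ± 0.233 was not called (adjusted p = 0.272). Relative to hepatocyte markers, a setting in which 88.2% of all called probe sets were higher, it was called higher (0.80, adjusted p = 0.00289). Abcb11, the bile salt export pump, was at -0.30 ± 0.16 (adjusted p = 0.119), and was called lower with array medians set equal (-0.49) and without ligated saline 2 (-0.40) or ligated saline 4 (-0.38).

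PXR and CAR targets were lower in 11 of 16 cases (11, 12 and 10) and higher in 4 (5, 4 and 5), with a median of -1.44. Of the drug-oxidizing enzymes of the family that PXR induces, Cyp3a9 fell to 6.27% of the sham level (adjusted p = 4.6e-07) and Cyp3a23-3a1 fell by 1.23 ± 0.245 on the log2 scale. Abcc2, the canalicular export pump MRP2, fell by 2.42 ± 0.201. The 4 higher genes were Abcc3, Sult2a2, Ephx1 and Ces2c, the last 3 named after their values were seen. Abcc3, the basolateral export pump MRP3, rose by 4.54 ± 0.186 (adjusted p = 3.64e-11) from a sham mean of 3.85, which is below the filter level, so that this fitted size depends on values near background. Sult2a2, a bile acid sulfotransferase, Ephx1, an epoxide hydrolase, and Ces2c, a carboxylesterase, rose by 2.52 ± 0.864, 0.62 ± 0.13 and 1.03 ± 0.183. Members of the cytochrome and sulfotransferase families are similar in sequence, and probe sets may not separate them.

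Targets of LXR were split, with 4 of 12 higher (4, 3 and 7) and 4 lower (4, 6 and 2) and a median of -0.07. Both counts lay near the shares over all genes, 37.5% higher and 27.2% lower. Lpl, lipoprotein lipase, rose by 4.67 ± 0.25 and Abcg1, a sterol exporter, by 1.40 ± 0.175. The other called genes, named after their values were seen, were Mylip, which marks the LDL receptor for breakdown, at 1.60 ± 0.204, the phospholipid transfer protein Pltp at 0.54 ± 0.214, the cholesterol exporter Abca1 at -0.33 ± 0.13 and the fatty acid desaturase Scd at -0.57 ± 0.222. Abcg5, a canalicular sterol exporter, was below the filter level on every ligated array and at least 2.66-fold lower than in sham. It passed the filter only through sham arrays, so its direction was set by that step. Srebf1, the activator of fatty acid synthesis that LXR induces, fell by 1.36 ± 0.172 (adjusted p = 4.01e-06). Between ligated ghrelin and ligated saline Srebf1 was the 1 gene of the 7 lists called, where it was higher by 0.94 ± 0.18 (adjusted p = 0.024), with saline rats from 9.48 to 10.32 and ghrelin rats from 10.34 to 11.33. That call was lost in 5 of 27 settings, namely without ligated saline 1, ligated saline 3 or ligated ghrelin 2, with only these groups fitted and with hepatocyte markers subtracted (adjusted p up to 0.0701). Lpl was just outside the threshold in this comparison, at -1.01 ± 0.262 (adjusted p = 0.0528), with saline rats from 10.14 to 11.64 and ghrelin rats from 9.06 to 10.41. It was called lower in 9 of 27 settings (lowest adjusted p = 0.0289), among them quantile normalization, equal array medians and leaving out ligated saline 2, ligated saline 4 or ligated ghrelin 4. Stellate cell and myofibroblast markers were lower in the same comparison, as given above, and their part in the Srebf1 and Lpl values was not tested.

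Among PPAR-alpha targets 13 of 21 were lower (12, 16 and 7) and none higher (0, 0 and 3), with a median of -0.64. Fabp1, the liver fatty acid carrier, fell by 1.27 ± 0.164. It is also on the hepatocyte marker list, and so is part of the marker mean that was subtracted. The mitochondrial beta-oxidation enzymes Acadm and Acadl fell by 0.88 ± 0.125 and 0.48 ± 0.0715, the latter reading 0.024 relative to hepatocyte markers. Cyp4a1, the fatty acid hydroxylase often used as a readout of PPAR-alpha, was at -0.29 ± 0.239 (adjusted p = 0.30).

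Other nuclear receptors were lower in 10 of 23 cases (13, 14 and 5) and higher in 6 (4, 2 and 12), with a median of -0.16. The thyroid hormone receptor Thrb fell by 1.38 ± 0.116 and Hnf4a, a regulator of hepatocyte identity that is also on the hepatocyte marker list, by 0.79 ± 0.097. The Hnf4a call held in all 27 settings, but its value was -1.50 as a mean over the gene's probe sets and -0.29 with hepatocyte markers subtracted. Nr4a1, an immediate early receptor, was below the filter level in sham and at least 2.73-fold higher in ligated saline. Rarg, named after its values were seen, was also below that level on every sham array and at least 1.03-fold higher. Nr4a1 and Rarg passed the filter only through ligated arrays, so their direction was set by that step. Rxrb, the paralog of Rxra, sat near the filter level at a group mean of 4.08 in ligated saline and 4.07 in sham, and its difference of 0.01 ± 0.0664 (adjusted p = 0.923) changed sign and was called lower under quantile normalization (-0.23) and with medians set equal (-0.18), and was called higher relative to hepatocyte markers (0.51).

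Of the coregulators that receptors recruit, 6 of 16 were higher (4, 2 and 13) and 2 lower (6, 7 and 1). The balance thus turned with the scaling, and the median was -0.04. The count of higher genes was no larger than the share over all genes, 37.5%, would give. Tbl1x, a corepressor subunit, and Nrip1, a corepressor, rose by 0.52 ± 0.111 and 0.58 ± 0.139, and Hdac3, the deacetylase of the NCoR complex, by 0.31 ± 0.0692, a call lost with medians set equal. The 2 lower genes, named after their values were seen, were Lpin1 and Ppargc1b, both coactivators of fatty acid oxidation, at -1.49 ± 0.392 and -0.77 ± 0.231.

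Around Fgfr4, 11 of 17 FGF signalling genes were higher in ligated saline (10, 10 and 15) and 1 lower (1, 3 and 0), with a median of 0.54. Fgfr1 and Fgfr3, receptors of the same family, rose by 2.24 ± 0.215 and 2.68 ± 0.26, and the ligand Fgf1 rose by 2.53 ± 0.305. The lower gene, named after its value was seen, was Sos1, a Ras activator, at -0.47 ± 0.0818. Cholangiocyte and stellate cell markers rose in the same livers, as given above, and their part in these rises was not tested. Between ligated ghrelin and ligated saline, 1 of 11 FXR and SHP, 1 of 16 PXR and CAR and 4 of 12 LXR targets had an unadjusted limma p under 0.05. So did 1 of 21 PPAR-alpha targets, 7 of 23 other nuclear receptors, 3 of 16 coregulators and 3 of 17 FGF signalling genes. Over all genes the share was 22.0%. After adjustment limma called Srebf1 alone on the 7 lists. That count depended on the scaling: with quantile normalization and with equal medians 1 FXR and SHP target was also called higher and 1 LXR target (Lpl) lower, and of the other nuclear receptors 1 and 2 were called higher, with Hnf4a among the latter (0.42, adjusted p = 0.0433, against 0.35 and 0.0714 as reported).

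**Figure D4:**
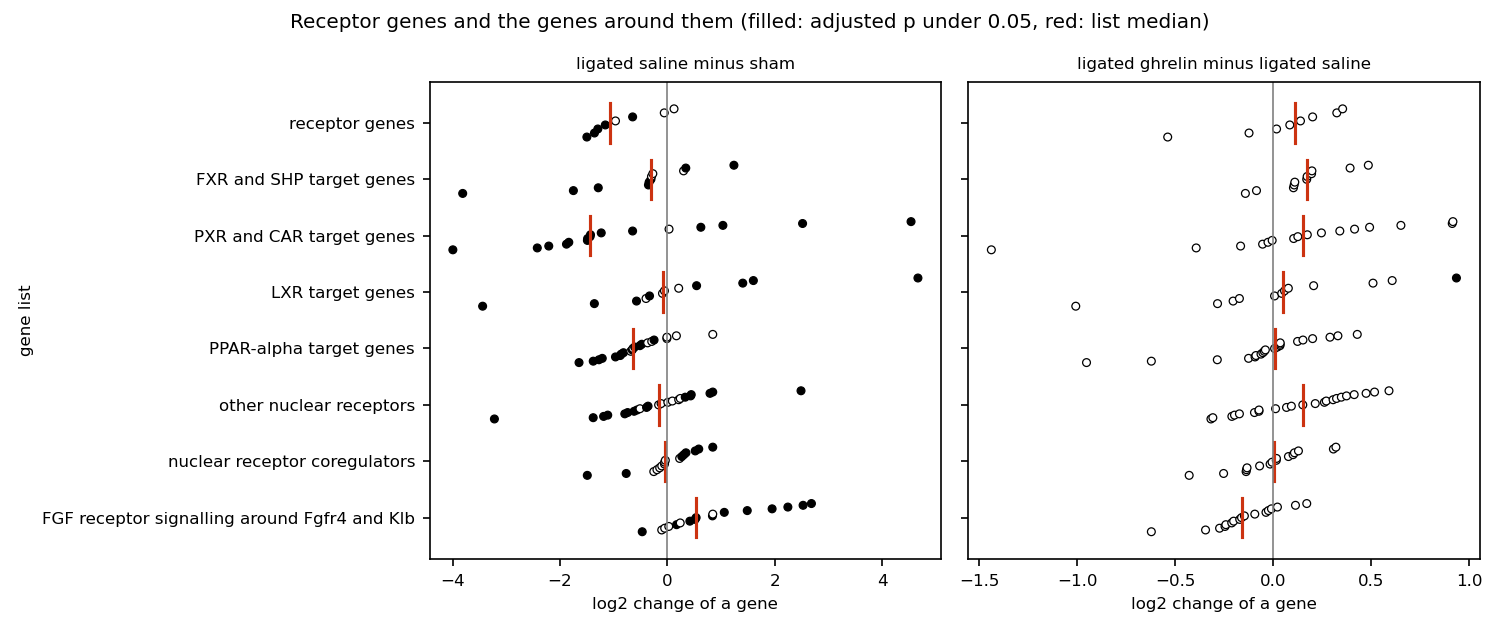
Log2 difference of each tested gene (points) of the members and of the 7 lists in ligated saline against sham and in ligated ghrelin against ligated saline, with the median of each list. The PXR and CAR targets had the lowest median in ligated saline against sham (-1.44) and the FGF signalling genes the highest (0.54), while in ligated ghrelin against ligated saline the medians lay close to 0.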

How the data were processed

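The deposited values are one intensity per probe set and array on a linear scale, which the authors made with GCRMA, per the submitters' processing notes. The sources used here give neither its version and settings nor scan dates or batches. All deposited intensity values were above 2 and were converted to log2 without a pseudocount. Precision is limited by how many arrays a group has.

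Of 31099 probe sets, 57 controls were left out, and 15964 of 31042 were kept because they exceeded the median of all values (intensity 15.5) on at least 5 of 17 arrays. Genes are those with 1 symbol in the platform annotation (20826 probe sets; 436 have several and 9780 none), 9735 in all, and the kept probe set of highest mean stands for each. Symbols are those of the platform table. The 3 group means were fitted to all 17 arrays without covariates in limma 3.58.1 (R 4.3.3; 14 residual and 2.54 prior degrees of freedom), with Benjamini-Hochberg adjustment over kept probe sets, and tested on simulated data. A fold against a group wholly below the filter level on every array is given as a lower bound, taking the dim group at that level or at its own value where higher. Pair correlations used 100000 permutations within groups.

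The members and lists were chosen with earlier results of these data known. Genes named beyond the members were the 3 with the lowest p among those called in each list and in each of the first comparisons, and 12 chosen by name. Others were named after their values were seen, as the text says beside each. Of the 12 chosen by name, Cyp2b1 is not given, since its probe set carries several symbols. The planned pairs Fgfr4 with Klb and Ppara with Cyp4a1 were not computed, because Klb and Ppara had no tested probe set. Alternatives were quantile normalization, equal array medians, other filters, 2-group fits, other variance models, array weights, gene means over probe sets, each array left out, and subtraction of the mean of 11 hepatocyte markers, which was added after the data were seen.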

Additional observations from a re-analysis of the deposited data

Results flagged for a closer look

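In 1 of the 30 groups tested for a sample far from the others, the 1387573_a_at probe set of Nr5a2, the ligated ghrelin 3 rat stood apart, at 4.81 where the other 4 rats lay from 6.43 to 6.61. The gap was 0.902 of the whole range of the group. Chance marks about 1 group in 20 in this way.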

How the results depend on the processing

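No paired analysis was possible because the labels number the arrays in one run without pairing rats across groups. Nr1h4, Nr1i2 and Rxra kept direction and call against sham in all 27 alternatives. Subtracting hepatocyte markers reversed Nr1h3 (0.44) and Acadl (0.024) in ligated saline minus sham and Fgfr4 (0.13) in ligated ghrelin minus sham, left 3 member genes lower and 2 higher in both, and left 9 genes called between the ligated groups. Rxrb in ligated saline minus sham reversed with quantile normalization (-0.23) and equal medians (-0.18). Between the ligated groups 228 genes were called, against 366 with quantile normalization, 445 with equal medians, 105 without a filter and 72 with only these groups fitted. Without a filter 10061 genes were called in ligated saline minus sham (6301 as reported) and 8908 in ligated ghrelin minus sham (5471). Leaving out each array gave 5956 to 6385, 5013 to 5518 and, between the ligated groups, 22 (without ligated ghrelin 2) to 450 (without ligated saline 4) genes. Member genes then were 5 to 6 lower and 0 higher, 3 to 5 lower, and 0 to 1 higher and 0 lower. In ligated saline minus sham 55.7% of called probe sets were higher, against 42.1%, 39.0% and 88.2% with quantile normalization, equal medians and hepatocyte subtraction and the median differences over kept probe sets were 0.04 as deposited and -0.11, -0.15 and 0.54 under these. In the same order the share was 56.0%, 43.8%, 43.1% and 88.3% in ligated ghrelin minus sham and 59.2%, 67.3%, 80.4% and 44.4% between the ligated groups. The causes were not tested.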

Other observations

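Nr1d1 and Nr1d2, the circadian repressors REV-ERB-alpha and REV-ERB-beta, were among the other nuclear receptors that were lower after ligation, and were picked out after their values were seen. Nr1d1 ran from 7.39 to 8.43 in sham rats, from 3.35 to 5.50 in ligated saline rats and from 3.29 to 7.14 in ligated ghrelin rats, so no ligated rat reached the sham range. Its log2 difference was -3.22 ± 0.492 (limma adjusted p = 2.81e-05) with saline and -2.63 ± 0.516 (adjusted p = 0.000435) with ghrelin. Nr1d1 was above the filter level on 4 of 6 ligated saline and 4 of 5 ligated ghrelin arrays. These fitted sizes thus depend in part on values near background. Nr1d2 fell by 1.19 ± 0.18 (adjusted p = 2.56e-05) with saline and by 1.38 ± 0.188 (adjusted p = 1.35e-05) with ghrelin. The hour of tissue collection is not given in the sources used here.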
